A study of Mus musculus with 9 samples.

Results

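The mitosis and chromosome segregation genes are 39 genes whose products start mitosis, hold it until every chromosome is attached, move the chromosomes and divide the cell. They were chosen by name, with earlier results of these data known. Each was measured by the probe sets that the platform annotation pairs with that symbol alone. This gave 38 of the 39 genes, on 39 probe sets, out of 19934 genes and 23397 probe sets with a listed gene in the whole data set. Ccnb1 was not analysed here, and Top2a had a second probe set.

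RNA came from aortic valves of C57BL/6J mouse pups at postnatal day 1, held for 48 h in floating filter culture. Explants received all-trans retinoic acid (ATRA) at 1 µmol/L in DMSO, the retinoic acid receptor antagonist LE540, or DMSO alone at 0.001%. The labels give neither a dose nor a vehicle for LE540, and they do not give the sex of the pups. There were 3 arrays in each group and 9 in all. Each array held RNA from valves of 5 to 6 pups, pooled, so the spread between arrays is a spread between pools, and whole explants mix several cell types.

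Genes of this kind are transcribed mainly in late G2 phase and mitosis, so in a tissue their RNA comes mostly from the cells that are dividing. Cdk1 with its cyclins starts mitosis, the spindle checkpoint delays separation until kinetochores are attached, and the anaphase-promoting complex (APC/C) then releases the sister chromatids. In newborn mice the cells of the heart valves are still dividing while the leaflets lengthen and their matrix becomes layered. Many of these promoters carry a cell cycle genes homology region (CHR) near the start site, read by the MuvB complex together with B-Myb and Foxm1, and upstream CCAAT boxes bound by NF-Y.

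The deposited values are normalized intensities, which set a gene against itself across arrays but not against another gene. Array medians lay between 123.61 and 128.13 intensity units. All 38 genes had group means above 58.38 units, a typical lower quartile of an array, in each group. Only 5 single values lay below it, all in LE540 replicate 1 (Bub1 46.4, Cenpe 48.1, Kif11 50.4, Hmmr 42.5 and Kif4 32.1). That array stood apart from the other 8 for these genes, so the LE540 counts, class medians and leading genes are also given without it, beside the account of the LE540 pools. The retinoic acid targets Tgm2, Dhrs3, Cyp26a1, Cyp26b1 and Rarb had a mean centred log2 value of 1.30 ± 0.22 in ATRA arrays, -0.71 ± 0.10 in LE540 arrays and -0.60 ± 0.25 in DMSO arrays (SD, n = 3 each), and the ATRA arrays did not overlap the others. The 10 markers of valve interstitial cells had summed intensities of 20924 to 24529 in ATRA, 10957 to 18775 in LE540 and 14619.9 to 20082 in DMSO. Their dimmest single value was 236 units, for Twist1.

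Mitosis genes had lower group means after both treatments than in DMSO, with a wider gap for LE540, but in neither comparison did a single gene pass the test. A score, the mean over the 38 genes of log2 intensity minus that gene's mean over the 9 arrays, was -0.17, 0.17 and 0.14 in ATRA replicates 1 to 3. It was -1.10, 0.22 and -0.55 in LE540 replicates 1 to 3, and 0.27, 0.47 and 0.54 in DMSO replicates 1 to 3. Every ATRA and LE540 array thus scored below every DMSO array, while the ATRA and LE540 arrays overlapped. The means were 0.05 ± 0.19 in ATRA, -0.48 ± 0.66 in LE540 and 0.43 ± 0.14 in DMSO (SD, n = 3 each). Between arrays of the same replicate number the score differed, ATRA minus DMSO, by -0.44, -0.30 and -0.40. In such bulk explants, fewer dividing cells and less RNA per dividing cell cannot be told apart.

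**Figure D1:**
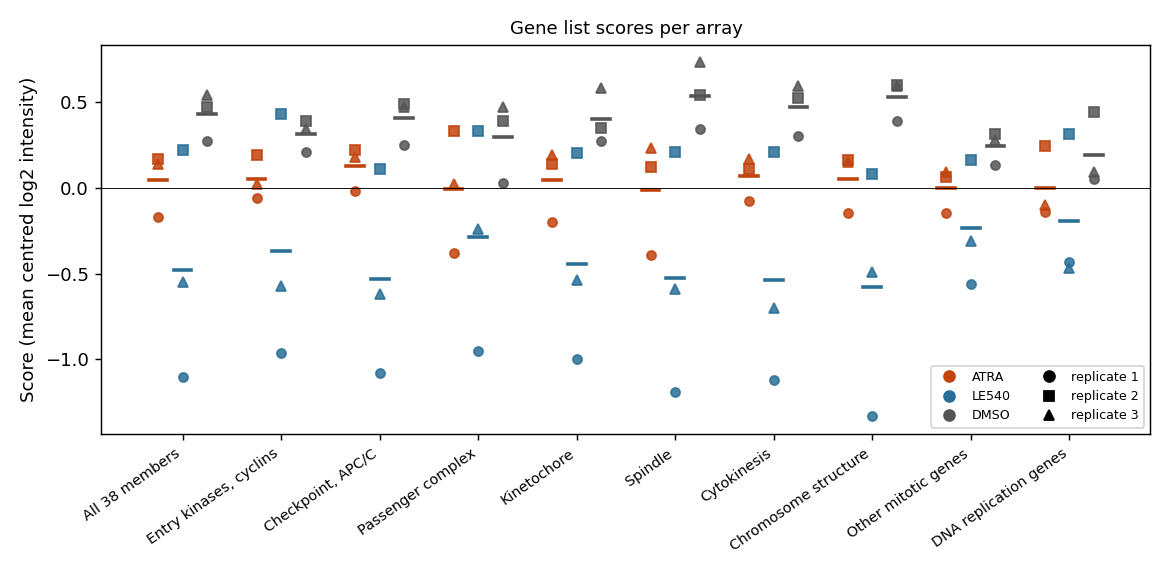
Score of each gene list on each of the 9 arrays. The vertical axis is the mean over the list's genes of log2 intensity minus the gene's mean over all arrays, symbols mark replicates 1 to 3 and short lines mark group means. For all 38 genes the DMSO arrays lie between 0.27 and 0.54, above all ATRA and LE540 arrays, and the LE540 arrays spread from -1.10 to 0.22.

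After ATRA, all 38 genes had a lower group mean of log2 intensity than in DMSO, against 51.5% of all probe sets tested. The median change was -0.34 on the log2 scale, with a range of -0.90 to -0.07, against a median of -0.01 over all genes. The threshold was an adjusted p under 0.1 in limma (Benjamini-Hochberg, over all 23397 probe sets), which 0.0812% of probe sets met. None of the 38 genes met it (lowest adjusted p 0.985). At an unadjusted p under 0.05, 4 genes were lower (Kif2c, Ncapg, Spc25 and Tpx2) and 0 were higher, where 2.36% of probe sets were lower and 2.34% higher. The arrays of the groups did not overlap, with ATRA lower, for 17 of the 38, against 6.34% of probe sets. No gene was over 2-fold lower, against 0.145% of probe sets, and the 95% interval of the change lay above a 2-fold fall for 16 genes and held a change of 0 for 34. A fit on the 6 ATRA and DMSO arrays alone had 18 genes lower at an unadjusted p under 0.05, against 3.76% of probe sets, and again 0 past the adjusted threshold. With the replicate number as a block, 8 genes were lower at that unadjusted p, against 3.4% of probe sets. In that fit 0 passed, against 0.124% (lowest adjusted p 0.317 in limma). The common direction did not hold with a Y-linked score in the model, where 22 genes were higher.

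After LE540, all 38 genes again had a lower group mean than in DMSO, against 45.3% of probe sets. The median change was -0.86, with a range of -1.71 to -0.19, against 0.02 over all genes. The adjusted threshold was met by 0.0299% of probe sets and by none of the 38 genes (lowest adjusted p 0.328, for Cenpf, Kif20a and Ttk). At an unadjusted p under 0.05, 29 genes were lower and 0 higher, where 4.33% of probe sets were lower and 4.47% higher. The arrays did not overlap, with LE540 lower, for 20 of the 38, against 5.86% of probe sets, and 14 genes were over 2-fold lower, against 0.709%. The 95% interval held a change of 0 for 9 genes. Both comparisons share the same 3 DMSO arrays, so a high DMSO array would lower both.

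**Figure D2:**
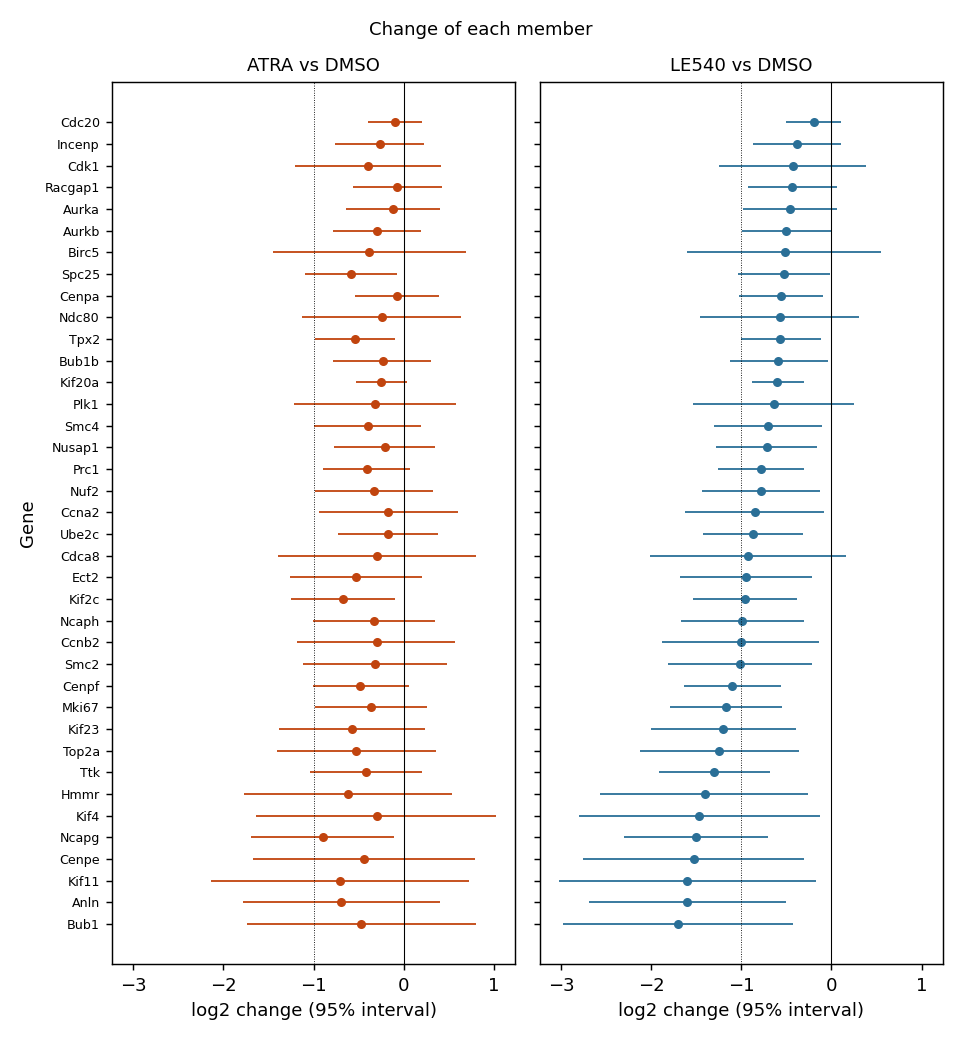
Change of each of the 38 genes on the log2 scale, ATRA vs DMSO on the left and LE540 vs DMSO on the right. Points are differences of group means over 3 arrays each, bars are 95% intervals of the limma fit, the solid line marks no change and the dotted line a 2-fold fall. All points lie below 0, from -0.90 to -0.07 for ATRA and from -1.71 to -0.19 for LE540, and the adjusted p did not pass for any gene.

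These genes also share promoter features. Of the 38 measured genes, 32 had a window from 250 bases before to 50 bases after the start in RefSeq's table (GRCm38.p6). The CHR core TTTGAA, searched on both strands, was found in 26 of the 32 (81.2%), against 17.3% of 15611 measured genes with a window. It lay within 50 bases of the start in 24 of the 32 (75%), against 4.49%. The box CCAAT, on both strands, was found in 25 (78.1%) against 41.7%, and both motifs in 23 (71.9%) against 6.89%. The related core TTTAAA was found in 8 (25%) against 13.4%, and an E2F core, TTCGCG on both strands, in 4 (12.5%) against 6.6%. A gene with several matches counted as 1, and neighbouring motifs were allowed to overlap. A match describes the letters and does not show a binding site.

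The promoters of 8 members are shown from 130 bases before to 30 bases after the start, because they span the range of responses and of motif layouts. Cdk1 drives entry into mitosis, Ccnb2 encodes a cyclin partner and Cdc20 the activator of the APC/C, Top2a and Ncapg shape chromosomes, Kif11 was among the lowest after both treatments, Racgap1 was among the least lowered, and Bub1 was lowest after LE540. Capitals mark the CHR core and the CCAAT box, each on either strand, and each sequence is given 5′ to 3′ along the gene. The stretches are chr10:69352883-69353042 on the minus strand for Cdk1, chr9:70421525-70421684 on the minus strand for Ccnb2, chr4:118437314-118437473 on the minus strand for Cdc20, chr11:99024160-99024319 on the minus strand for Top2a, chr5:45669795-45669954 on the plus strand for Ncapg, chr19:37376252-37376411 on the plus strand for Kif11, chr15:99651627-99651786 on the minus strand for Racgap1 and chr2:127831830-127831989 on the minus strand for Bub1.
Cdk1: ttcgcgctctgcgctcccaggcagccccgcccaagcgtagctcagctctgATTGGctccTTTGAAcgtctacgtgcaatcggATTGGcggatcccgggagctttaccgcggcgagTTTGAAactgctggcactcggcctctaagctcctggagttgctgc
Ccnb2: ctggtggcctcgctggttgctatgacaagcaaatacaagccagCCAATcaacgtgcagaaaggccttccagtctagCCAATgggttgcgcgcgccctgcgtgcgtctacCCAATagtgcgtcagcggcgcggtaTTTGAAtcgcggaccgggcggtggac
Cdc20: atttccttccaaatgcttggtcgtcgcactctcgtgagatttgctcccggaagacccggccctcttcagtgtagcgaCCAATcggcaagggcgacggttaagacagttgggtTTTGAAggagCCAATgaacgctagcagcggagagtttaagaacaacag
Top2a: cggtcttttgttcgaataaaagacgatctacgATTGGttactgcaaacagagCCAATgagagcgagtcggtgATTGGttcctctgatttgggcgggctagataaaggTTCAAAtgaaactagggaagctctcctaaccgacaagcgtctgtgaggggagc
Ncapg: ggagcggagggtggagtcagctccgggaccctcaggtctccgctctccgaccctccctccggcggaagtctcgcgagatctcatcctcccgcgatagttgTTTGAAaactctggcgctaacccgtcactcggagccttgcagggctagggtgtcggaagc
Kif11: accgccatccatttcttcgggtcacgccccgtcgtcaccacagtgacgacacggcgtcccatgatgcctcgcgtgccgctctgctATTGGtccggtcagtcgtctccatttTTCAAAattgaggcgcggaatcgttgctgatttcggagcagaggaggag
Racgap1: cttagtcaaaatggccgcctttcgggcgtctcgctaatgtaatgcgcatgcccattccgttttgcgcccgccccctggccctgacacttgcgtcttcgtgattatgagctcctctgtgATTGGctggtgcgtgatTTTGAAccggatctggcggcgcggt
Bub1: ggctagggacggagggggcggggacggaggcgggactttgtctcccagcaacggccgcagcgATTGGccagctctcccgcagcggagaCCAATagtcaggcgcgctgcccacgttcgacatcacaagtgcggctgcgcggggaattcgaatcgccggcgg
In Cdk1 a TTTGAA begins 15 bases before the start, behind a CCAAT box 48 bases before it, with a second pair further upstream. In Ccnb2 the TTTGAA lies 4 bases past the start, behind CCAAT boxes 21, 54 and 87 bases before it. Top2a has its TTTGAA on the other strand 23 bases before the start, and the stretch shown of Ncapg has a TTTGAA 30 bases before the start and no CCAAT box. Bub1 has CCAAT boxes but no TTTGAA in its window. Its LE540 change was the lowest of the 38, at -1.71. Without LE540 replicate 1 it was -0.94, and Ttk was lowest at -1.11. The median change of genes with TTTGAA was -0.37 (n = 26) and that of genes without it -0.36 (n = 6) after ATRA. After LE540 it was -0.96 with TTTGAA and -0.89 without it. Among the genes without TTTGAA, Birc5 and Cenpe carried the related core TTTAAA. Whether the motifs bear on the changes was not tested.

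Among the kinases and cyclins that start mitosis, the changes were moderate. Cdk1, the kinase whose activity starts mitosis, had 432, 802 and 517 intensity units in ATRA replicates 1 to 3, 459, 993 and 363 in LE540 replicates 1 to 3, and 699, 819 and 708 in DMSO replicates 1 to 3. Both treated groups overlapped the DMSO values, since replicate 2 was high in each treated group. Its log2 change was -0.39 (SE 0.36, adjusted p 0.999 in limma) after ATRA and -0.43 (SE 0.36, adjusted p 0.723) after LE540. Plk1, a kinase needed for centrosome maturation and chromosome attachment, had 192, 218 and 199 units in ATRA arrays, 89.2, 331 and 144 in LE540 arrays and 233, 305 and 228 in DMSO arrays. All 3 ATRA values were below the DMSO values, whereas LE540 replicate 2 was the highest of the 9. The Plk1 changes were -0.32 (SE 0.39) after ATRA and -0.64 (SE 0.39) after LE540. Of the other genes of this class, Aurka, a kinase of the spindle poles, differed by -0.12 after ATRA and -0.46 after LE540. The cyclin genes Ccna2 and Ccnb2 differed by -0.17 and -0.30 on the log2 scale after ATRA and by -0.85 and -1.01 after LE540. The class median was -0.30 after ATRA and -0.64 after LE540, with 0 of 5 genes past the adjusted threshold in either.

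In the spindle checkpoint and the APC/C, Bub1 and Ttk had the largest LE540 differences. Bub1b (BubR1), a checkpoint protein that holds back the APC/C, had 227, 284 and 300 units in ATRA arrays, 189, 278 and 176 in LE540 arrays and 228, 378 and 363 in DMSO arrays. DMSO replicate 1 lay among the treated values, so both treated groups overlapped DMSO. Its changes were -0.23 (SE 0.24) after ATRA and -0.59 (SE 0.24, adjusted p 0.549 in limma) after LE540. Cdc20, the activator that the checkpoint inhibits, had 212, 229 and 222 units in ATRA arrays, 184, 254 and 187 in LE540 arrays and 239, 221 and 247 in DMSO arrays. Cdc20 differed little, by -0.09 (SE 0.13) after ATRA and -0.19 (SE 0.13) after LE540, and LE540 replicate 2 was its highest value. Bub1, a kinase that recruits checkpoint proteins to kinetochores, had 294, 333 and 321 units in ATRA arrays, 46.4, 310.3 and 166 in LE540 arrays and 389, 402 and 532 in DMSO arrays. All treated Bub1 values were below all DMSO values, yet the SE of 0.56 left its changes at -0.47 (adjusted p 0.999 in limma) after ATRA and -1.71 (adjusted p 0.529) after LE540. Ttk, the kinase that sets off checkpoint signalling, had 164, 243 and 212 units in ATRA arrays, 85.7, 172 and 92.5 in LE540 arrays and 244, 335 and 247 in DMSO arrays. Its treated and DMSO arrays did not overlap, with changes of -0.42 (SE 0.27) after ATRA and -1.30 (SE 0.27, adjusted p 0.328 in limma) after LE540. Ube2c, the ubiquitin-conjugating enzyme that works with the APC/C, differed by -0.17 after ATRA and -0.87 after LE540, without overlap in both. The class medians were -0.23 after ATRA and -0.87 after LE540.

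The chromosomal passenger complex, which corrects faulty attachments and helps position the cleavage furrow, showed the smallest class median after LE540. Aurkb, its kinase, had 195, 318 and 197 units in ATRA arrays, 169.9, 231 and 203 in LE540 arrays and 238, 323 and 294 in DMSO arrays. LE540 values were all below DMSO values, and ATRA values overlapped them. The Aurkb changes were -0.30 (SE 0.21) after ATRA and -0.50 (SE 0.21, adjusted p 0.56 in limma) after LE540. Birc5 (survivin), the subunit that targets the complex to centromeres, had 414, 696 and 556 units in ATRA arrays, 263, 1141 and 397 in LE540 arrays and 587, 689 and 873 in DMSO arrays. LE540 replicate 2 was its highest and LE540 replicate 1 its lowest value of the 9, which left changes of -0.38 (SE 0.47) after ATRA and -0.52 (SE 0.47) after LE540. Incenp, the scaffold of the complex, differed by -0.26 after ATRA and -0.38 after LE540. Cdca8 (borealin) differed by -0.29 after ATRA and -0.93 after LE540, with 74.4 units in LE540 replicate 1 against 299 to 373 in DMSO arrays. The class medians were -0.29 after ATRA and -0.51 after LE540.

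Kinetochore genes ranged from -0.58 to -0.07 after ATRA and from -1.53 to -0.53 after LE540. Cenpe, a kinesin that carries chromosomes to the spindle equator, had 271, 305 and 327 units in ATRA arrays, 48.1, 268 and 218 in LE540 arrays and 374, 387 and 466 in DMSO arrays. The 3 groups did not overlap at any point, in the order DMSO, ATRA, LE540. Its changes were -0.44 (SE 0.54) after ATRA and -1.53 (SE 0.54, adjusted p 0.541 in limma) after LE540. Ndc80, the core of the microtubule-binding complex, had 359, 438 and 539 units in ATRA arrays, 212, 711 and 282 in LE540 arrays and 503, 468 and 597 in DMSO arrays. LE540 replicate 2 was above all DMSO arrays while the other LE540 arrays were below them, and its changes were -0.24 (SE 0.39) after ATRA and -0.57 (SE 0.39) after LE540. Its partner subunits were not compared with one another by a test. Nuf2 differed by -0.33 after ATRA and -0.78 after LE540. Spc25 alone of the 38 genes had an ATRA mean of log2 intensity below its LE540 mean, at -0.05 (SE 0.22). Spc25 had 258, 447 and 380 units in ATRA arrays, 305, 474 and 339 in LE540 arrays and 476, 555 and 555 in DMSO arrays. Treated Spc25 values were all below DMSO values, by -0.58 (SE 0.22, adjusted p 0.999 in limma) after ATRA and -0.53 (SE 0.22, adjusted p 0.56) after LE540. Cenpf, a large kinetochore-associated protein, differed by -0.48 after ATRA and -1.10 after LE540, the second without overlap. Cenpa, the histone H3 variant that marks centromeres, was among the least changed after ATRA, with 277, 264 and 264 units in ATRA arrays, 187, 267 and 140.3 in LE540 arrays and 267, 267 and 315 in DMSO arrays, a change of -0.07 (SE 0.21).

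Spindle motors and spindle assembly factors had the lowest class median after ATRA, at -0.62, and -0.96 after LE540. Kif11 (Eg5), the kinesin that pushes the spindle poles apart, had 185, 388 and 318 units in ATRA arrays, 50.4, 392 and 180.2 in LE540 arrays and 417, 496 and 478 in DMSO arrays. All treated values were below all DMSO values, and replicate 1 was the lowest in both treated groups. The changes were -0.71 (SE 0.63) after ATRA and -1.60 (SE 0.63, adjusted p 0.543 in limma) after LE540. Tpx2, which activates Aurora A and nucleates spindle microtubules, had 207, 303 and 308 units in ATRA arrays, 249, 323 and 226 in LE540 arrays and 335, 414 and 429 in DMSO arrays. Its treated groups were alike in mean and both lay below DMSO, with changes of -0.54 (SE 0.20, adjusted p 0.985 in limma) after ATRA and -0.57 (SE 0.20, adjusted p 0.541) after LE540. Kif2c (MCAK), a kinesin that takes microtubule ends apart, had 105, 192 and 183 units in ATRA arrays, 98.3, 154 and 135 in LE540 arrays and 210.3, 258 and 277 in DMSO arrays. Its groups did not overlap DMSO, with changes of -0.67 (SE 0.25, adjusted p 0.999 in limma) after ATRA and -0.96 (SE 0.25, adjusted p 0.434) after LE540. Nusap1, a microtubule bundling protein, differed by -0.21 after ATRA and -0.72 after LE540, and Hmmr, a spindle pole protein, by -0.62 after ATRA and -1.41 after LE540.

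Genes of the central spindle and of cytokinesis had class medians of -0.41 after ATRA and -0.95 after LE540. Anln (anillin), the scaffold of the contractile ring, had 330, 444 and 492 units in ATRA arrays, 98, 484 and 227 in LE540 arrays and 608, 621 and 797 in DMSO arrays. No treated Anln value reached the DMSO range, with changes of -0.69 (SE 0.48) after ATRA and -1.60 (SE 0.48, adjusted p 0.497 in limma) after LE540. Prc1, which bundles the microtubules of the central spindle, had 318, 264 and 309.6 units in ATRA arrays, 226, 318 and 169 in LE540 arrays and 343, 424 and 422 in DMSO arrays. Neither treated group overlapped DMSO for Prc1, and the changes were -0.41 (SE 0.21, adjusted p 0.999 in limma) after ATRA and -0.78 (SE 0.21, adjusted p 0.448) after LE540. Racgap1 and Kif23 together form centralspindlin, and their changes were not compared with each other by a test. Racgap1 had 268, 219 and 226 units in ATRA arrays, 193, 244 and 131 in LE540 arrays and 217, 244 and 289 in DMSO arrays, overlapping throughout, with changes of -0.07 after ATRA and -0.44 after LE540 (SE 0.22 each). Kif23 had changes of -0.57 after ATRA and -1.20 after LE540 (SE 0.36 each), and its LE540 arrays did not overlap DMSO. Kif20a, a kinesin needed for cleavage, had 139, 170.3 and 164 units in ATRA arrays, 107, 142 and 123 in LE540 arrays and 190.3, 182 and 187 in DMSO arrays. Its DMSO arrays were close together, and its changes of -0.25 after ATRA and -0.60 after LE540 had the smallest SE of this class, 0.13, with an adjusted p of 0.328 in limma after LE540. Ect2, the exchange factor that activates RhoA at the cleavage site, differed by -0.53 after ATRA and -0.95 after LE540, and Kif4, a motor that binds chromosome arms, by -0.30 after ATRA and -1.47 after LE540.

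Chromosome structure genes had the lowest class median after LE540, at -1.10, and -0.38 after ATRA. Top2a, the topoisomerase that untangles sister DNA, had 794, 939 and 829.8 units in ATRA arrays, 259.9, 942 and 564 in LE540 arrays and 1007, 1342 and 1373 in DMSO arrays. Each treated value was below each DMSO value, with changes of -0.53 (SE 0.39) after ATRA and -1.25 (SE 0.39, adjusted p 0.526 in limma) after LE540. The second Top2a probe set was dim, at 48.8 to 87.7 units, and gave smaller changes of -0.26 after ATRA and -0.20 after LE540 (SE 0.21 each). Mki67, which encodes the proliferation antigen Ki-67 that coats mitotic chromosomes, had 303, 373 and 384 units in ATRA arrays, 139.9, 318 and 179.9 in LE540 arrays and 379.9, 501 and 477 in DMSO arrays. One ATRA array reached the DMSO range and no LE540 array did, with changes of -0.36 (SE 0.27) after ATRA and -1.17 (SE 0.27, adjusted p 0.37 in limma) after LE540. Ncapg, a condensin subunit, had 213, 336 and 336 units in ATRA arrays, 107, 315 and 205 in LE540 arrays and 520.2, 557 and 541 in DMSO arrays. The gap between treated and DMSO arrays was wide for Ncapg, whose changes of -0.90 (SE 0.35, adjusted p 0.999 in limma) after ATRA and -1.50 (SE 0.35, adjusted p 0.37) after LE540 included the lowest ATRA change of the 38. The other condensin genes, Smc2, Smc4 and Ncaph, differed by -0.32, -0.40 and -0.33 after ATRA and by -1.02, -0.70 and -0.99 after LE540.

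**Figure D3:**
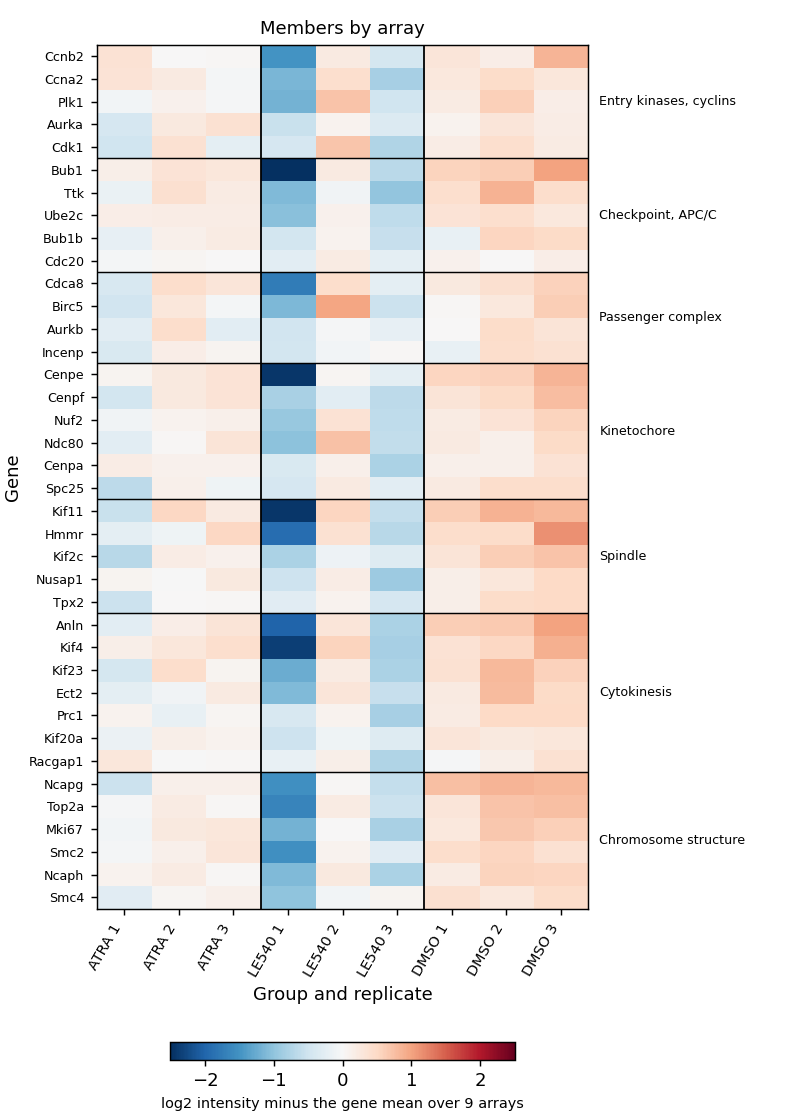
Level of each of the 38 genes on each array, as log2 intensity minus the gene's mean over the 9 arrays, with genes grouped by role and columns ordered ATRA, LE540, DMSO. LE540 replicate 1 is the darkest blue column, the lowest of the 9 arrays for 30 genes, while LE540 replicate 2 is the highest of the LE540 arrays for 36 genes.

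The 3 LE540 pools did not behave alike. LE540 replicate 1 was the lowest of all 9 arrays for 30 of the 38 genes, and LE540 replicate 2 was the highest of the LE540 arrays for 36. All 38 genes in LE540 replicate 1 were below each DMSO array, where 28.1% of probe sets were, and 37 in LE540 replicate 3, where 25.6% were. In LE540 replicate 2, 20 genes were below each DMSO array, where 29.7% of probe sets were, while 13 lay within the DMSO range and 5 (Birc5, Cdc20, Cdk1, Ndc80 and Plk1) above it. The SD of log2 values within a group had a median over the 38 genes of 0.21 in ATRA, 0.69 in LE540 and 0.19 in DMSO, against 0.15 in ATRA, 0.20 in LE540 and 0.13 in DMSO over all genes. It was larger in LE540 than in DMSO for 35 of the 38 genes, against 67.8% of all genes. Without LE540 replicate 1 the median change of LE540 vs DMSO was -0.54, with 16 genes lower at an unadjusted p under 0.05, against 2.97% of probe sets, 3 over 2-fold lower, against 0.214%, and 0 past the adjusted threshold, which 1 of 23397 probe sets met. Without LE540 replicate 2 the median was -1.18, 26 genes were over 2-fold lower, against 1.16% of probe sets, and 12 passed, where 98 of 23397 probe sets did (0.419%). These 12 were Nuf2, Nusap1, Ube2c, Ncaph, Ect2, Ccna2, Ncapg, Prc1, Mki67, Ttk, Anln and Kif23, with adjusted p of 0.0375 (Ncaph) to 0.0995 (Ect2) in limma.

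Without LE540 replicate 1, all 38 genes still had lower means in LE540 than in DMSO arrays, with changes of -1.11 (Ttk) to -0.07 (Birc5). For 19 of the 38 the main change was over 1.5 times as large as the change without that array. The class medians were then -0.32 for the genes that start mitosis, -0.61 for the checkpoint and the APC/C, -0.28 for the passenger complex, -0.53 for kinetochores, -0.78 for spindle motors and assembly factors, -0.73 for cytokinesis and -0.73 for chromosome structure. The genes with the widest differences came closer to DMSO, with Bub1 at -0.94, Kif11 at -0.80, Anln at -1.02, Cenpe at -0.75, Kif4 at -0.73, Hmmr at -0.83, Top2a at -0.75, Ncapg at -1.09 and Mki67 at -0.91. Plk1 stood at -0.21, Ndc80 at -0.22, Cdca8 at -0.32 and Cdk1 at -0.30. The changes of Prc1 (-0.77), Cenpa (-0.54), Tpx2 (-0.53) and Racgap1 (-0.47) without it were near their main values. Class medians and gene changes are given in this way for LE540 replicate 1 only, a choice made after seeing the data. Without LE540 replicate 2 the median over the 38 genes moved the other way, from -0.86 to -1.18.

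Of the genes that rose with LE540, 3 were looked at in each LE540 pool. The metallothionein genes Mt1 and Mt2 and the stress response gene Ddit3, chosen after their values were seen, rose in LE540 against DMSO (adjusted p 0.0917 each in limma). Ddit3 had 4292, 2476 and 3787 units in LE540 replicates 1 to 3, against 1068, 1049 and 888 in DMSO arrays. Mt1 had 5250.0, 3449 and 4582 units in LE540 arrays, against 1139, 530.4 and 944 in DMSO arrays, and Mt2 had 10311, 4997 and 6561 units in LE540 arrays, against 758, 396 and 606 in DMSO arrays. For each of these 3 genes LE540 replicate 2 was above all DMSO arrays and the lowest of the LE540 arrays. Genes that pass with 3 arrays a group mostly lie above DMSO in each array. That these 3 did so in replicate 2 therefore follows largely from how they were chosen. Whether this gradation bears on the mitosis genes was not tested.

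Set against each other, ATRA arrays had higher group means than LE540 arrays for 37 of the 38 genes, against 43.1% of probe sets. The LE540 dose is not known, so the values stand side by side without matched doses. The median difference, ATRA minus LE540, was 0.50, with a range of -0.05 (Spc25) to 1.24 (Bub1). None of the 38 passed the adjusted threshold, met by 0.603% of probe sets. At an unadjusted p under 0.05, 6 genes were higher in ATRA and 0 lower, where 4.82% of probe sets were higher and 4.72% lower. The arrays did not overlap, with ATRA higher, for Cenpe and Ube2c, 2 of 38, against 5.24% of probe sets, and 3 genes were over 2-fold higher, against 1.36%. The largest differences after Bub1 were 1.17 (SE 0.59) for Kif4, 1.09 (SE 0.54) for Cenpe and 0.91 (SE 0.48) for Anln, and the smallest beside Spc25 were 0.03 (SE 0.20) for Tpx2, 0.04 (SE 0.36) for Cdk1 and 0.11 (SE 0.13) for Cdc20. The difference of the scores was 0.93, -0.04 and 0.69 between arrays of the same replicate number. With the replicate number as a block, Ttk passed as higher in ATRA (0.88, SE 0.15, adjusted p 0.0833 in limma), 1 gene of 38 against 0.945% of probe sets. Without LE540 replicate 2, the median was 0.84 and 7 genes passed as higher in ATRA (Ccna2, Mki67, Ncaph, Nuf2, Nusap1, Ttk and Ube2c), where 278 of 23397 probe sets passed (1.19%), and without LE540 replicate 1 the median was 0.22 with 0 past the threshold.

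The 38 genes varied together. Over the 9 arrays, all 703 pairs of genes correlated above 0, with a median r of 0.81, and 87.1% of their variance lay on a single component, against 33.2% for all genes. The points share the arrays, and 1 array, LE540 replicate 1, lies far from the rest. In deviations from the group means the median r was 0.74 and the single component held 82% of the variance, against 33.5% for all genes. Without LE540 replicate 1 the median r was 0.76 over the 8 arrays and 0.74 in deviations, with 74.7% of the deviations' variance on 1 component, against 36.1% for all genes. In the ATRA and DMSO arrays alone the median r of the deviations was 0.51, and the component held 65.5%, against 42% for all genes. These recomputations were chosen after seeing the data.

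Most of the other mitotic genes, named in a wider list, also had lower means after both treatments. The wider list too was written with earlier results of these data known. Of 82 measured genes in that list, 68 were lower and 14 higher after ATRA, with a median of -0.24, and 77 were lower and 5 higher after LE540, with a median of -0.37, where 51.5% of all probe sets were lower after ATRA and 45.3% after LE540. At an unadjusted p under 0.05, 8 were lower and 1 higher after ATRA, where 2.36% of probe sets were lower and 2.34% higher. After LE540, 28 were lower and 1 higher, where 4.33% of probe sets were lower and 4.47% higher. In both comparisons 0 passed the adjusted threshold. Mad2l1, the checkpoint protein that seizes Cdc20, had 515, 886 and 822 units in ATRA arrays, 570.3, 965 and 653 in LE540 arrays and 1067, 1187 and 1137 in DMSO arrays. Its treated arrays were all below DMSO, by -0.65 (SE 0.24, adjusted p 0.986 in limma) after ATRA and -0.67 (SE 0.24, adjusted p 0.541) after LE540. Pttg1 (securin), which keeps separase inactive, had changes of 0.13 after ATRA and -0.01 after LE540 (SE 0.12 each). Kif18a, a motor that limits chromosome oscillation, differed by -0.44 after ATRA and -1.02 after LE540 (SE 0.40 each). The widest LE540 differences in the list were in Shcbp1, at -1.89 (SE 0.87), and in the kinetochore gene Cenph, at -1.86 (SE 0.75). Both had LE540 replicate 1 values far below the rest, at 30.4 units for Shcbp1 and 28.8 for Cenph, and without that array the differences were -0.94 for Shcbp1 and -0.96 for Cenph. Kif20b, a kinesin of late cytokinesis, differed by -1.49 (SE 0.33) in LE540 vs DMSO and by 1.09 (SE 0.33) in ATRA vs LE540.

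The regulators of these genes had changes of either sign, which were not compared with one another by a test. Foxm1, the forkhead factor that activates G2 and mitosis genes, had 209.8, 201 and 232 units in ATRA arrays, 71.6, 193 and 127 in LE540 arrays and 214, 236 and 221 in DMSO arrays. It was close to DMSO after ATRA, at -0.06 (SE 0.30), and lower in each LE540 array, at -0.89 (SE 0.30, adjusted p 0.529 in limma), or -0.52 without LE540 replicate 1. Mybl2, which encodes B-Myb, differed by 0.08 after ATRA and -0.07 after LE540 (SE 0.12 each). E2f1, an activator of S-phase genes, differed by 0.33 after ATRA and -0.06 after LE540 (SE 0.14 each). Chosen after their values were seen, Rbl1 (p107), a repressor of E2F targets, differed by -0.76 after ATRA (adjusted p 0.97 in limma) and -1.04 after LE540 (adjusted p 0.419, SE 0.27 each), and its relative Rbl2 (p130) by -0.29 after ATRA and -0.79 after LE540 (adjusted p 0.328 in limma, SE 0.16 each). E2f8, an atypical E2F repressor, differed by -0.18 after ATRA and -1.10 after LE540 (adjusted p 0.529 in limma, SE 0.36 each), and E2f4 by 0.08 after ATRA and 0.48 after LE540 (SE 0.17 each). Without LE540 replicate 1 the LE540 changes were -0.68 for Rbl1, -0.62 for Rbl2 and -0.67 for E2f8. Over 17 regulators the medians were -0.17 after ATRA, with 12 lower, against 51.5% of probe sets, and -0.09 after LE540, with 11 lower, against 45.3%, and 0 passed. Among 6 measured inhibitors of cyclin-dependent kinases the medians were 0.05 after ATRA and 0.06 after LE540. Of these inhibitors, Cdkn1c (p57) had 227, 229.6 and 241 units in ATRA arrays, 266, 354 and 231 in LE540 arrays and 200.3, 194 and 189 in DMSO arrays, so that both treated groups lay above DMSO, by 0.26 (SE 0.15, adjusted p 0.999 in limma) after ATRA and 0.52 (SE 0.15, adjusted p 0.461) after LE540. Cdkn2b (p15) differed by -0.11 after ATRA and 0.10 after LE540 (SE 0.20 each), and Cdkn1a was not analysed here because its probe set carries another symbol too. Of 19 DNA replication genes, 16 were lower after each treatment, against 51.5% of probe sets after ATRA and 45.3% after LE540. Their medians were -0.17 after ATRA and -0.32 after LE540, with 0 past the threshold. Prim1, the primase subunit with the largest differences in that list, had -0.79 after ATRA and -1.13 after LE540 (SE 0.40 each).

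Sex-linked genes, which reflect the mix of male and female pups in a pool, varied between the pools. A Y-linked score over Eif2s3y, Kdm5d and Uty was 1.33, -0.03 and 1.35 in ATRA replicates 1 to 3, 1.04, -1.52 and 1.25 in LE540 replicates 1 to 3, and -1.08, -2.50 and 0.16 in DMSO replicates 1 to 3. The ATRA arrays averaged 0.88 ± 0.79, the LE540 arrays 0.26 ± 1.54 and the DMSO arrays -1.14 ± 1.33 (SD, n = 3 each). The group with the highest mean mitosis score, DMSO, thus had the lowest mean Y-linked score. LE540 replicate 2, the LE540 pool with the highest mitosis score, had the lowest Y-linked score of its group, while DMSO replicate 3, with the highest mitosis score of all, had the highest Y-linked score of its own. Xist, transcribed from the inactive X chromosome of females, had 85.7, 1393 and 326 units in ATRA arrays, 61.6, 1652 and 1361 in LE540 arrays and 2903, 2589 and 2294 in DMSO arrays. Every treated array was thus below every DMSO array for Xist, the same split as in the mitosis score. Adding the Y-linked score to the model gave a median change over the 38 genes of 0.05 in ATRA vs DMSO, with 22 genes higher and 16 lower. In LE540 vs DMSO it was -0.61, with 37 genes lower and 11 at an unadjusted p under 0.05, against 4.7% of probe sets. In ATRA vs LE540 it was 0.59, and of the 38 genes only Ttk passed, as higher in ATRA (1.05, adjusted p 0.0569 in limma). In that fit 0.551% of probe sets passed. Treatment and Y-linked score are partly confounded in 9 pools, and by Xist the DMSO pools stood apart from all treated pools. Treatment and sex composition therefore cannot be fully told apart here. The part of sex composition in these differences was not tested beyond this fit.

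**Figure D4:**
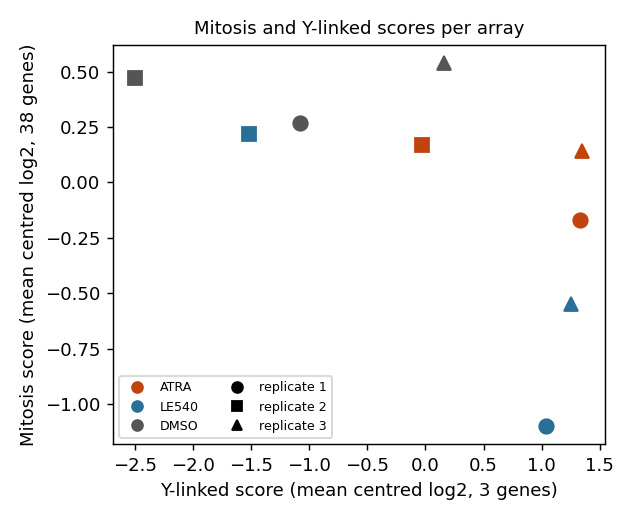
Mitosis score (vertical, mean centred log2 intensity of 38 genes) against Y-linked score (horizontal, mean centred log2 intensity of 3 genes) for each of the 9 arrays, with colours for treatment and symbols for replicate number. The 4 arrays with Y-linked scores above 1 are ATRA and LE540 replicates 1 and 3, and DMSO replicate 2 has the lowest Y-linked score, -2.50.

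Markers of other cell types varied between pools, and some differed by group. All 10 endothelial and all 6 smooth muscle markers had higher means in ATRA than in DMSO arrays, as did 8 of 10 valve interstitial markers, with 0 past the adjusted threshold. Of all 23397 probe sets, 11353 were higher in ATRA. In LE540 arrays 8 of 10 valve interstitial and 8 of 10 macrophage markers had lower means than in DMSO arrays, against 45.3% of probe sets. Again 0 passed the adjusted threshold. The 15 cardiomyocyte markers summed to 13983 to 24610.2 units in ATRA, 14414 to 25287 in LE540 and 14614 to 29578 in DMSO arrays. The 10 endothelial markers summed to 2392 to 5696 units in ATRA, 1532 to 3234 in LE540 and 1708 to 3289 in DMSO arrays, and 10 macrophage markers to 1974 to 3528 units in ATRA, 2551 to 3604 in LE540 and 2029 to 4346 in DMSO arrays. The 6 smooth muscle markers summed to 4395 to 10177 units in ATRA, 2132 to 3689 in LE540 and 2149 to 4746 in DMSO arrays. The dimmest single value was 77.1 units (Myl7) in the cardiomyocyte list, 47 (Emcn) in the endothelial, 58 (Mrc1) in the macrophage and 115 (Myh11) in the smooth muscle list. LE540 replicate 1 had the lowest valve interstitial sum of the 9, 10957, and also the lowest mitosis score. Adding the cardiomyocyte score to the model gave median changes of the 38 genes of -0.28 in ATRA vs DMSO and -0.89 in LE540 vs DMSO, and the part of the other cell types was not tested.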

How the data were processed

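Per the labels' protocols, Nugen kits were used to amplify and label the RNA of 9 pools, 1 array each. The values deposited by the authors are linear RMA intensity values made with Affymetrix Expression Console 1.1, per the submitters' processing notes. RMA corrects background, quantile-normalizes arrays and summarizes probes, so a change common to most genes would not show. The annotation and its genome build are not given in the sources used here. The number of arrays limits the precision.

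From these values log2 was taken, and limma 3.58.1 in R 4.3.3 fitted a model with 3 groups to all 9 arrays (6 residual and 2.725 prior degrees of freedom), with two-sided tests adjusted by Benjamini-Hochberg over 23397 probe sets with a listed gene (21780 with 1 symbol, 1617 with several). The other 4873 of 28270 rows carry no listed gene and were left out. A probe set passed at an adjusted p under 0.1, the threshold of the series' design text, which also asks for a fold over 2. A gene with several probe sets was represented by the one with the highest mean. The fit was also run on simulated data with noise drawn independently for each probe set. That simulation lacked the shared variation of the mitosis genes, so it does not show how the fit handles them.

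The members and all gene lists were named from textbook roles, but with earlier results of these data known. Their counts beside the shares of all probe sets are therefore descriptions. Named were 15 members with values in every array, the 4 lowest and 4 highest members of each comparison, 8 genes of other lists fixed by name and the 2 largest differences per comparison in the other lists. The other members are given by their changes. The array values of Ttk and Kif20a, and Mt1, Mt2, Ddit3, Xist, Rbl1, Rbl2, E2f8 and E2f4, were added after their values were seen.

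Arrays with the same replicate number were checked for shared deviations from their group means. For ATRA and DMSO r was 0.143, 0.342 and 0.22, for ATRA and LE540 0.261, 0.282 and 0.269, and for LE540 and DMSO 0.00946, 0.215 and 0.126, so the numbers were taken to pair the arrays in the comparisons that include ATRA. Alternatives covered the arrays in the fit, the replicate block, normalization, dim probe sets, the variance prior, array weights, the rows tested, probe sets per gene, Y-linked and cardiomyocyte scores as covariates, a stricter threshold, leaving out each array and, added after seeing the data, the arrays behind the correlations. Promoter windows came from RefSeq.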

Additional observations from a re-analysis of the deposited data

How the results depend on the processing

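No member passed the adjusted threshold in ATRA vs DMSO under any alternative. In that comparison the median over members was -0.45 to -0.26 when each array was left out in turn, and 0.05 with the Y-linked covariate. The number of members higher in ATRA than in DMSO was 0, against 22 with the Y-linked covariate, 1 with array weights and 0 to 2 with an array left out. In LE540 vs DMSO the median was -1.18 to -0.54 with an array left out. In those fits 0 to 12 members passed, where 0% to 1.27% of probe sets did. With the Y-linked covariate 1 member was higher in LE540 than in DMSO. In ATRA vs LE540 the median was 0.22 to 0.84 with an array left out. There 0 to 7 members passed, where 0.231% to 1.19% of probe sets did. In that comparison 1 member passed both with the replicate block (0.945% of probe sets) and with the Y-linked covariate (0.551%). With an array left out, members lower at an unadjusted p under 0.05 numbered 0 to 10 in ATRA vs DMSO, against 1.5% to 3.26% of probe sets. In LE540 vs DMSO they numbered 15 (without DMSO replicate 3) to 37 (without LE540 replicate 2), against 2.5% to 7.69%. Members higher in ATRA vs LE540 numbered 1 (without LE540 replicate 1) to 30 (without LE540 replicate 2), against 3.72% to 6.83%. In ATRA vs DMSO the block left 0 members past the adjusted threshold. At an unadjusted p under 0.05 it gave 8 members lower (3.4% of probe sets), against 4 (2.36%) in the main fit. In LE540 vs DMSO 1 of 3 arrays correlated best with its own number, so the pairing is uncertain there. With the block 0 members passed in that comparison, and 32 were lower at an unadjusted p under 0.05 (5.82% of probe sets). With the Y-linked covariate, ATRA vs DMSO changed sign for Aurka (0.16), Birc5 (0.30), Bub1 (0.09), Bub1b (0.05), Cdc20 (0.05), Cdk1 (0.30), Cenpa (0.14), Kif11 (0.17), Kif4 (0.38), Mki67 (0.06), Ndc80 (0.23), Plk1 (0.40) and Racgap1 (0.08), LE540 vs DMSO for Cdk1 (0.05) and ATRA vs LE540 for Spc25 (0.04). Spc25 was 0.02 with the cardiomyocyte covariate, and array weights turned Aurka to 0.03 in ATRA vs DMSO and Birc5 to -0.12 and Cdk1 to -0.08 in ATRA vs LE540. With an array left out, ATRA vs DMSO ranged from -0.28 to 0.12 for Aurka, -0.11 to 0.01 for Cenpa and -0.16 to 0.04 for Racgap1. ATRA vs LE540 then ranged from -0.31 to 0.75 for Birc5, -0.26 to 0.47 for Cdk1, -0.22 to 0.17 for Spc25, -0.03 to 0.33 for Aurkb, -0.08 to 0.22 for Tpx2, -0.03 to 0.28 for Incenp, -0.03 to 0.84 for Ndc80 and -0.10 to 0.84 for Plk1. The median r among members was 0.81 over the 9 arrays, 0.76 without LE540 replicate 1 and 0.72 in ATRA and DMSO arrays alone, and in deviations 0.74 over all arrays and 0.51 in ATRA and DMSO arrays alone. The cause of these moves was not tested. With 3 pools a group and LE540 pools that differed widely, the intervals of 19 of 38 members hold both no change and a 2-fold fall after ATRA.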
